A study of Mus musculus with 12 samples.

Results

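The lungs of mice labelled Has2+/- were compared after ovalbumin and after saline, across all genes. Has2 encodes one of the enzymes that make hyaluronan, a long sugar polymer of the extracellular matrix, and Has2+/- mice carry 1 disrupted copy of it. The members are the 6 of 12 RNA sequencing libraries whose columns carry the codes of this genotype, 3 from ovalbumin-treated lungs (libraries 7 to 9) and 3 from saline-treated lungs (libraries 10 to 12). The other 6 libraries are wild-type (WT) lungs, 3 with ovalbumin (libraries 1 to 3) and 3 with saline (libraries 4 to 6). All mice were of the C57BL/6 strain. Those of the ovalbumin groups were sensitized to ovalbumin and then received it through the nose, and their titles carry a time of 24 without a unit. The dose, the number of exposures, age, sex, the part of Has2 that was disrupted and how many mice went into a library are unknown from the labels. The p-values therefore measure the spread between these libraries, which may be technical.

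Ovalbumin is an egg-white protein that serves as an experimental allergen. In a sensitized lung it sets off a type 2 response, in which helper T cells and innate lymphoid cells release the cytokines IL-4, IL-5 and IL-13. These act through the transcription factor STAT6 on macrophages and the airway lining, which turn to mucus, chitinase-like proteins and chemokines that draw in eosinophils. Interferons bring on a different set of chemokines and defence GTPases.

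Values are the authors' normalized read counts, on a scale that they forced to one distribution, so that each of the 12 libraries sums to 6852201 and the sequencing depth of each is unknown. Changes are differences of log2(value + 1) between the group means, which understates the change of genes with low values. They come from a limma fit of 19017 genes across all 12 libraries, with p-values adjusted by the method of Benjamini and Hochberg over all of these genes and a threshold of 0.05. "Rose" and "fell" are kept for genes past that threshold.

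Several facts about the libraries bear on every result. Has2 (chr15:56665627-56694539, minus strand) was at 6.67, 5.75 and 11.2 in the 3 ovalbumin and at 7.67, 8.17 and 7.42 in the 3 saline libraries labelled Has2+/-, and at 3.50, 6.42 and 10.2 and at 6.67, 4.42 and 6.08 in the WT ovalbumin and saline libraries. The labelled genotype is thus not visible in the level of its own gene, and whether the counted exons lie in the disrupted part is not given. Markers of lung cells were present in all 6 Has2+/- libraries: Ager of alveolar type 1 cells was at 10910, 13669 and 9701 with ovalbumin and at 12160, 11265 and 13416 with saline. Genes of basal and squamous epithelium were not evenly spread. Their summed level over 12 genes was 442, 149 and 58.0 in libraries 7, 8 and 9, and 35639, 25584 and 185 in libraries 10, 11 and 12. WT libraries 3, 4 and 6 also held high sums (28069, 31311 and 23167), and WT libraries 1, 2 and 5 lower ones (62.4, 38.0 and 2009). Krt13, a keratin of the squamous lining of the upper airway and gullet, was at 159.7, 36.2 and 3.17 with ovalbumin and at 15519, 11469 and 33.9 with saline, and the adjusted p of the 12 genes did not pass the threshold for any of them. Krt4, its partner keratin, was at 130.1, 41.3 and 5.17 and at 17649, 12160 and 48.7. Library 12 correlated with its own group at Spearman correlations of 0.979 to 0.981 across genes, and with the ovalbumin libraries at 0.980 to 0.987.

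Ovalbumin was followed by more rises than falls in Has2+/- lungs: 532 of the 19017 genes were called (2.8%), of which 351 rose (1.85%) and 181 fell (0.952%). The median change of the genes that rose was 0.62, and 117 of them at least doubled, with a change of 1 or more on the log2 scale. The median of the genes that fell was -0.46, and 22 fell by at least 1. The median over all tested genes was 0.006. In 2511 genes (13.2%) all 3 ovalbumin libraries lay above all 3 saline libraries, and in 2101 genes (11%) they lay below. At an unadjusted limma p under 0.05, 10.5% of all genes were higher and 8.88% lower, the background for the counts at that limit given for lists.

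The size of these counts depends on single libraries. Library 7 held the highest ovalbumin value in 76.5% of the rises (33.1% of all genes) and the lowest in 75.4% of the falls. Without library 7, 87 genes rose and 16 fell, and without library 10, 42 rose and 9 fell. Without library 11 the counts were 91 and 24, without library 8 they were 189 and 98, and without library 12 they were 248 and 107. Without library 9, in contrast, 437 rose and 271 fell. With the squamous and basal level of each library as a covariate 64 genes rose and 29 fell, 84 of these among the 532 genes called here. Without both libraries 10 and 11, the saline libraries that hold that signal, library 12 was the only saline library left, its spread was taken from the other groups, and 0 genes rose and 1 fell. Leaving out a WT library, which leaves the values of the 6 Has2+/- libraries as they are but alters the shared estimate of spread and slightly the set of tested genes, gave 241 (library 6) to 540 (library 1) rises and 94 (library 4) to 356 (library 1) falls. All 532 genes kept their direction in each of these fits, which the choice of called genes largely fixes.

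**Figure D1:**
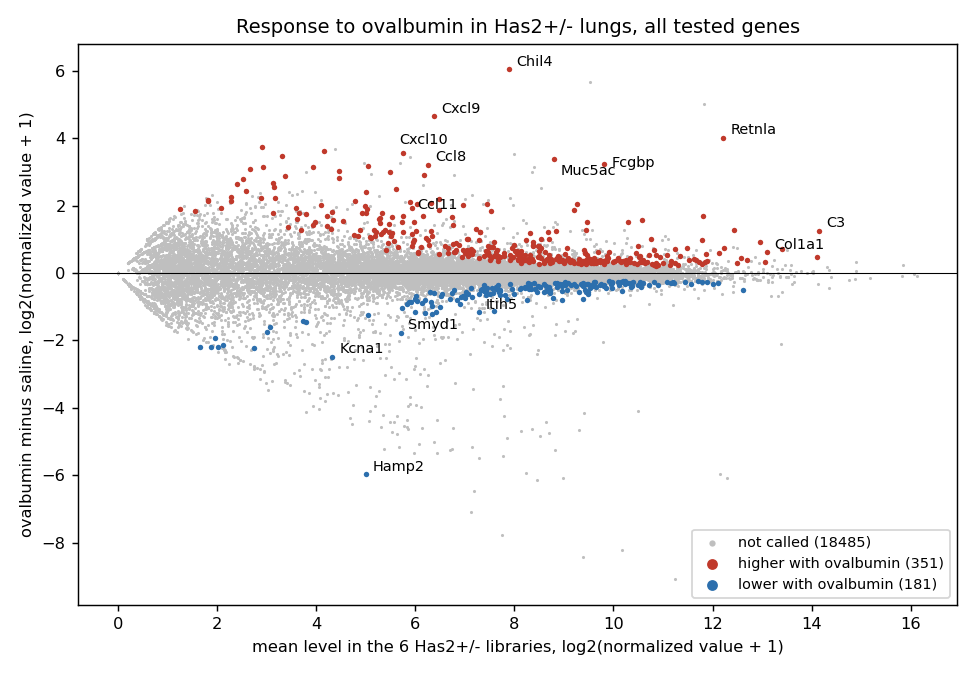
Change after ovalbumin in Has2+/- lungs for each of the 19017 tested genes, as log2(normalized value + 1) in the ovalbumin minus the saline group, against the mean level in the 6 libraries on the same scale; each point is a gene. The 351 genes that rose (red) reach 6.04 in Chil4, Hamp2 is the lowest of the 181 that fell (blue), and most of both lie within 1 unit of 0.

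The largest rises belonged to macrophage and airway products and to chemokines. Chil4 (chr3:106201490-106219507, minus strand), a chitinase-like protein, was at 422, 378 and 585 in the ovalbumin and at 8.33, 0.667 and 20.1 in the saline libraries (log2 change 6.04, 95% confidence interval 3.52 to 8.56, adjusted p = 0.0334). Every ovalbumin library was far above every saline library, but the call was lost without library 7, 8, 9, 10 or 11. Cxcl9 (chr5:92321347-92328079, minus strand), a ligand of the T cell receptor CXCR3, went from 4.58, 6.17 and 3.33 to 225, 188 and 63.8 (log2 change 4.66, 95% confidence interval 3.32 to 5.99, adjusted p = 0.00734). Its lowest ovalbumin value was in library 9, still above all saline values. Retnla (chr16:48842552-48844461, plus strand), the resistin-like protein FIZZ1 of alternatively activated macrophages and airway epithelium, was at 295, 379.8 and 1248 with saline and at 11469, 9534 and 5508 with ovalbumin (log2 change 4.02, 95% confidence interval 2.82 to 5.22, adjusted p = 0.0124). Library 12 held the highest saline value of this gene, and the groups did not overlap.

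Promoters are shown for 3 of the largest rises, each with the letters that a search for STAT6 and interferon motifs matched in capitals. The windows are the 250 bases before the RefSeq gene start in GRCm38.p6, 5′ to 3′ on the strand of the gene. The motifs searched, on both strands, were TTC and GAA with 4 bases of any kind between them (the spacing preferred by STAT6), and GAAA and GAAA with 2 bases between them (the core of the interferon-stimulated response element). Matches of different motifs may overlap.
Cxcl10 (chr5:92348890-92349139, minus strand): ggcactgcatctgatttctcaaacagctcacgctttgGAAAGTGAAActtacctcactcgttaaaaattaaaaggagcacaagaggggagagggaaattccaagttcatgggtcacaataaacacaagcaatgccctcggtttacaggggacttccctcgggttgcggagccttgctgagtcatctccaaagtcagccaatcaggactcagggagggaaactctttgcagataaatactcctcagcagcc
Tgtp1 (chr11:48992247-48992496, minus strand): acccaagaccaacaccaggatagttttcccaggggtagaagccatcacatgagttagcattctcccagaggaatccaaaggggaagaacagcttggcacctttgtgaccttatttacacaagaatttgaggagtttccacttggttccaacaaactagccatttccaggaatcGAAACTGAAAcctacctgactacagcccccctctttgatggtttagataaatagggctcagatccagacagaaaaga
Retnla (chr16:48842359-48842608, plus strand): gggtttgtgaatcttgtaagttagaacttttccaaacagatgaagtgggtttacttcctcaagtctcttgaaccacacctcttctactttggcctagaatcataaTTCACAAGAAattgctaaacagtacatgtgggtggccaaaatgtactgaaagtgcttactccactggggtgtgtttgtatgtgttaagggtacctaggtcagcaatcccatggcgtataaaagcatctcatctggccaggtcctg
In Cxcl10 the capitals are the interferon motif, from -213 to -204 counted from the start. In Tgtp1 they are the interferon motif (-77 to -68) and in Retnla the STAT6 form (-145 to -136). The interferon motif was in 8.81% of the 261 windows of rises, in 2.78% of the 144 windows of falls and in 3.29% of the 13550 windows of all tested genes. The STAT6 form was in 6.51%, 4.86% and 5.86% of the same windows. These are matches of letters, not sites shown to be bound. Of the 25 largest rises and falls named here, 19 had a window and 4 of these had a match. The 3 windows shown were chosen among those 4, and Oas1g is the other.

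**Figure D2:**
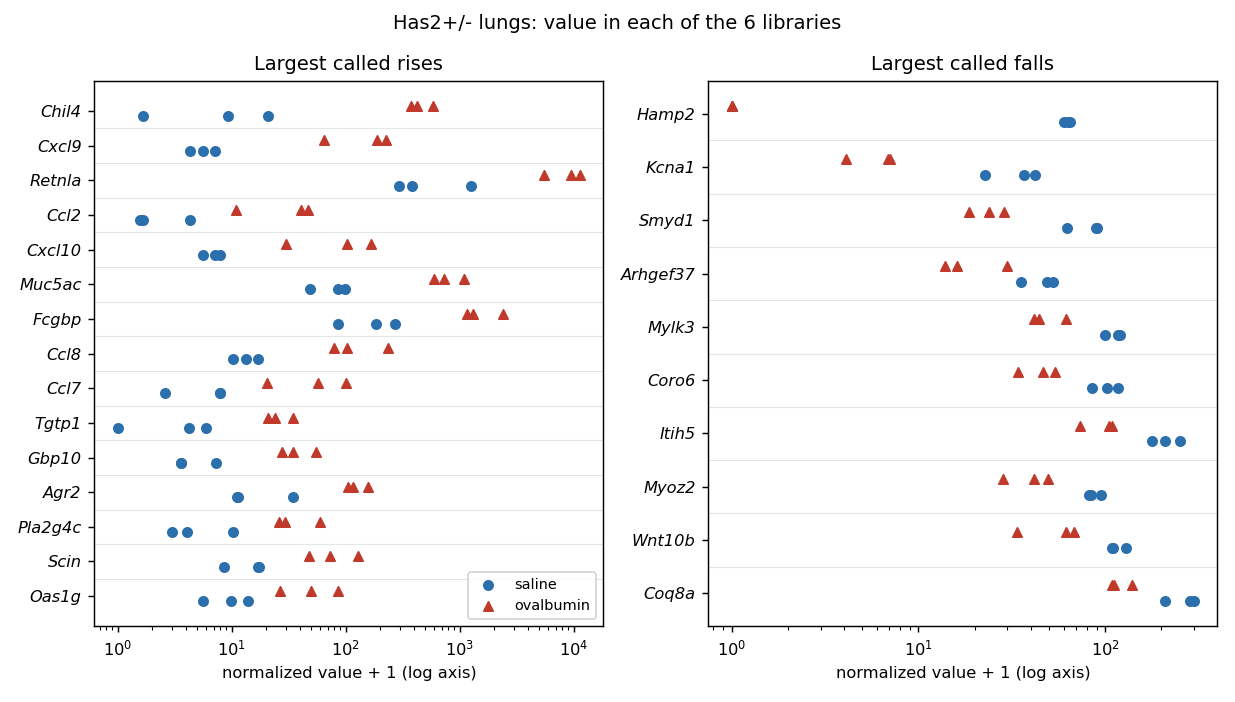
Normalized value + 1 (log axis) in each of the 6 Has2+/- libraries for the 15 largest rises (left) and the 10 largest falls (right) named by the rule; triangles are ovalbumin and circles saline libraries. The rule took only genes in which the libraries of the groups do not overlap.

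The alarmin Il33 and its receptor rose, and the genes of the effector cytokines Il4, Il5 and Il13 were at values under 10 in all 6 libraries. Of 11 tested cytokines, alarmins and receptors, 2 rose and 0 fell, with a median change of 0.43. Il33, the alarmin of stressed epithelium, was at 1299.6, 909 and 735 with ovalbumin and at 327, 324 and 576 with saline (log2 change 1.27, adjusted p = 0.0467). Il1rl1, which encodes the receptor of IL-33, was at 66.8, 85.9 and 78.2 against 43.8, 38.8 and 46.8 (log2 change 0.82, adjusted p = 0.0227). In both genes the groups did not overlap. Il33 was not called without library 7, 8, 10 or 11, nor Il1rl1 without library 8, 10 or 11. Il13, the main inducer of airway mucus, was at 1.00, 3.58 and 2.08 and at 1.92, 1.00 and 1.00 (log2 change 0.43, 95% confidence interval -0.81 to 1.66, adjusted p = 0.738), and the groups overlapped. Il4 was at 3.08, 0 and 2.08 and at 1.00, 0 and 1.00 (log2 change 0.55, 95% confidence interval -0.85 to 1.95, adjusted p = 0.695). Il5, the growth factor of eosinophils, was at 2.00, 5.83 and 6.08 and at 4.83, 6.5 and 4.67 (log2 change -0.26, 95% confidence interval -1.25 to 0.73, adjusted p = 0.810). The intervals of Il4 and Il13 include a change of 1, a doubling of value + 1 and more than a doubling of the value itself. That of Il5 includes -1. Il9 and Il25 were listed at 0 in all 6 libraries.

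Of 9 tested chemokines and receptors of eosinophils and type 2 helper T cells 5 rose and 0 fell, the median change was 1.70, and the count was 1 without library 10, 2 without library 7, 9 or 11 and 3 without library 8 or 12. Ccl11 (chr11:82057823-82062955, plus strand), eotaxin, was at 94.1, 115 and 75.9 with ovalbumin and at 21.7, 16.2 and 26.2 with saline (log2 change 2.11, 95% confidence interval 1.55 to 2.67, adjusted p = 0.00113). It stayed called whichever of the 6 libraries was left out. Ccl8 was at 237, 101 and 77.8 against 9.33, 16.2 and 12.5 (log2 change 3.22, 95% confidence interval 2.25 to 4.18, adjusted p = 0.00694). In mice it is an attractant of type 2 helper T cells, and its call was lost only without library 10. Ccl22, a ligand of CCR4 made by dendritic cells and macrophages, was at 235, 171 and 253 against 72.8, 97.2 and 111 (log2 change 1.22, adjusted p = 0.0430). The receptor genes were at lower values: Ccr3, the eotaxin receptor, was at 34.2, 22.1 and 25.5 against 5.50, 7.83 and 9.92 (log2 change 1.70, adjusted p = 0.0403). Ccr4 was at 24.8, 15.2 and 26.4 against 4.50, 7.83 and 8.83 (log2 change 1.53, adjusted p = 0.0446). All 3 ovalbumin libraries were above all 3 saline libraries in each of these genes. Ccr3 and Ccr4 were called in none of the fits without one of the 6 Has2+/- libraries. Ccl24, the second eotaxin, spread from 17.6 to 191 with ovalbumin and from 0.667 to 38.3 with saline, so that the groups overlapped (log2 change 3.27, 95% confidence interval 0.25 to 6.28, adjusted p = 0.225).

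Of 15 goblet cell genes 7 rose, 0 fell, 12 were higher in every ovalbumin library than in every saline library, and the median change was 1.80. Without library 7 the count of rises was 0, without library 10 or 11 it was 1, and without library 12 it was 8. Muc5ac (chr7:141788972-141819231, plus strand), the gel-forming mucin of inflamed airways, was at 733, 596 and 1097 with ovalbumin and at 48.2, 84.8 and 97.2 with saline (log2 change 3.39, 95% confidence interval 2.30 to 4.49, adjusted p = 0.0145). Muc5b, the gel-forming mucin of resting airways, was at 7999.6, 6426 and 9112 against 2762, 3132 and 3760.2 (log2 change 1.28, 95% confidence interval 0.81 to 1.75, adjusted p = 0.0205). Both mucins had their highest value in library 9, which held the lowest ovalbumin value in 58.7% of all rises. Fcgbp, a mucus protein that binds mucins, was at 1169.7, 1324 and 2382 against 85.1, 184 and 269 (log2 change 3.25, adjusted p = 0.0187). Agr2, a disulfide isomerase needed to fold mucins, was at 155, 116 and 104 against 10.2, 10.5 and 33.8 (log2 change 2.91, adjusted p = 0.0135). Ern2, a stress sensor of the endoplasmic reticulum in mucus cells, was at 21.9, 17.2 and 39.4 against 2.58, 6.17 and 8.83 (log2 change 2.02, adjusted p = 0.0216). Spdef, the transcription factor of goblet cells, was at 41.2, 34.4 and 46.9 against 17.4, 12.2 and 19.6 (log2 change 1.28, adjusted p = 0.0446), and Tff2, a trefoil peptide secreted with mucus, rose by 1.66 (adjusted p = 0.0127).

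The goblet cell gene Clca1 missed the threshold at a large change. It was at 5649, 5041 and 10042 with ovalbumin and at 38.1, 347 and 636 with saline (log2 change 5.0, 95% confidence interval 2.45 to 7.56, adjusted p = 0.0569). Every ovalbumin library was far above every saline library, and the saline libraries differed among themselves from 38.1 to 636.

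Of 8 chitinase-like and resistin-like genes 5 rose and 0 fell, with a median change of 1.31; none was called without library 7, 10 or 11, 1 without library 8, and 3 without library 9. Besides Chil4 and Retnla, described above, Chil3 (Ym1) was at 7834, 4269.8 and 4399.7 against 1332, 1468 and 2257 (log2 change 1.69, 95% confidence interval 0.88 to 2.49, adjusted p = 0.0486). Chil3 and Chil4 share 18.5% of their 50-base stretches, so that reads may have been split between them. Chia1, the acidic mammalian chitinase, was at 1274, 1023 and 634 against 174, 153 and 419 (log2 change 2.06, adjusted p = 0.0496). Chil1, a chitinase-like protein without enzyme activity, was at 12550, 9701 and 9258 against 4526, 5704 and 6303 (log2 change 0.93, adjusted p = 0.0347). In each of the 5 genes library 12 held the highest saline value. Chil3 was called in none of the fits without one of the 6 Has2+/- libraries. 

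Of 12 genes of alternative macrophage activation 6 rose and 0 fell (median 1.59), with 2 rises left without library 7, 10 or 11. Chil3, Chil4 and Retnla are among them, and the list shares these genes with the one above. Mrc1, the mannose receptor of macrophages, was at 1264, 1158 and 1074 against 712, 746 and 809 (log2 change 0.62, 95% confidence interval 0.46 to 0.78, adjusted p = 8.58e-04). Alox15, a lipoxygenase induced by IL-4 and IL-13, was at 123, 81.5 and 72.8 against 31.0, 25.3 and 38.3 (log2 change 1.5, 95% confidence interval 1.06 to 1.95, adjusted p = 0.00288). Mrc1 and Alox15 stayed called whichever library was left out. Cd209e, a C-type lectin, was at 13.9, 5.58 and 7.67 against 0, 0.583 and 2.33 (log2 change 2.44, adjusted p = 0.0175). Arg1, arginase of such macrophages, was at 643, 200.4 and 67.0 with ovalbumin and at 41.6, 37.5 and 58.6 with saline (log2 change 2.17, 95% confidence interval 0.48 to 3.85, adjusted p = 0.161). The groups did not overlap, and library 7 was far above libraries 8 and 9.

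Of 17 tested genes that answer interferon-γ 8 rose and 0 fell, and their median change was 1.5. The count was 0 without library 10, 2 without library 7, 3 without library 11, and 5 without library 8 or 12. Cxcl10 (chr5:92346638-92348889, minus strand), the second CXCR3 ligand, was at 166, 102 and 29.2 against 4.58, 6.17 and 6.92 (log2 change 3.56, 95% confidence interval 2.37 to 4.75, adjusted p = 0.0101). The order of the ovalbumin libraries was the same as in Cxcl9. Of the immunity-related GTPases in the list, which attack membranes around microbes, Tgtp1, Tgtp2, Iigp1, Igtp and Irgm1 rose, and Irgm2 did not pass (log2 change 1.24, adjusted p = 0.0616). Tgtp1 was at 33.9, 23 and 20.1 against 3.25, 0 and 4.92 (log2 change 3.15, adjusted p = 0.0182). Its near-copy Tgtp2, which shares 89.4% of its 50-base stretches, was at 36.0, 25.1 and 40.2 against 10, 9.33 and 13.3 (log2 change 1.54, adjusted p = 0.0181), so that these values cannot be assigned firmly to either gene. Iigp1 was at 1293, 825 and 676 against 234, 271 and 228 (log2 change 1.88, adjusted p = 0.0411). Igtp rose by 1.71 (adjusted p = 0.0147) and Irgm1 by 1.24 (adjusted p = 0.0499). Of the guanylate-binding proteins in the list Gbp6 rose, and Gbp2, Gbp3, Gbp4, Gbp5 and Gbp7 did not pass, with changes of 1.29, 0.99, 0.91, 1.5 and 1.01. Gbp6 was at 261, 178 and 159 against 47.8, 49.6 and 44.8 (log2 change 2.02, adjusted p = 0.0327). Gbp10, which is outside the list and shares 42.9% of its 50-base stretches with Gbp6, was at 54.0, 33.8 and 26.6 against 2.58, 2.58 and 6.33 (log2 change 3.04, adjusted p = 0.00734).

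Type I interferon-stimulated genes were mostly above the saline range, but none passed the threshold. Of 17 tested genes 14 had all ovalbumin libraries above all saline libraries, against 13.2% of all genes, 13 were higher at an unadjusted limma p under 0.05, against 10.5% of all genes, 0 rose, and the median change was 1.27. Without library 9, 4 rose. Stat2, a transcription factor of the type I interferon response, was at 1377, 771 and 671 against 428, 461 and 452 (log2 change 1.00, adjusted p = 0.121). Library 7 stood above libraries 8 and 9, and all 3 stood above the saline libraries. Outside the list, Oas1g, of the family of enzymes that sense viral RNA, was at 85.1, 48.4 and 25.8 against 8.83, 4.67 and 13 (log2 change 2.40, adjusted p = 0.0187). It shares 54.1% of its 50-base stretches with Oas1a.

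Proinflammatory cytokines and enzymes gave 4 rises and 0 falls among 16 tested genes, with a median of 1.44, and 2 rises without library 7 and 1 without library 10. Ccl2 (chr11:82035571-82037453), the main attractant of monocytes through CCR2, was at 46.2, 40 and 9.92 against 0.667, 0.583 and 3.33 (log2 change 3.62, 95% confidence interval 2.43 to 4.80, adjusted p = 0.00665). Ccl7, its neighbour on chromosome 11 and a ligand of the same receptor, was at 99.4, 56.8 and 19.6 against 1.58, 6.92 and 6.92 (log2 change 3.18, 95% confidence interval 1.87 to 4.48, adjusted p = 0.0206). Both chemokines were lowest among the ovalbumin libraries in library 9. Cxcl1, a neutrophil attractant, was at 9.33, 10 and 7.67 against 0.833, 0.667 and 0 (log2 change 2.78, adjusted p = 0.00734) and stayed called whichever library was left out. Osm, oncostatin M, was at 35.8, 22.8 and 20.1 against 8.83, 10.2 and 8.33 (log2 change 1.39, adjusted p = 0.0140). 

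Of 14 complement genes 7 rose and 0 fell (median 0.60), with 1 rise without library 10 and 2 without library 12. C3 (chr17:57203970-57228136, minus strand), the component on which all complement routes meet, was at 32652, 24726 and 20249 against 8939, 10910 and 12160 (log2 change 1.26, 95% confidence interval 0.90 to 1.62, adjusted p = 0.00734), and stayed called whichever library was left out. C1qa, C1qb and C1qc, the chains of the recognition molecule C1q that macrophages make, rose by 1.03, 1.22 and 0.91. C3ar1, the receptor of the C3a fragment, was at 243, 133 and 102 against 56.0, 55.5 and 53.7 (log2 change 1.42, adjusted p = 0.0202). C2, a component of the classical route, rose by 0.56 and the protease C1ra by 0.34. C1ra shares 48% of its 50-base stretches with C1rb. Among 10 acute-phase proteins 1 rose and 0 fell (median 0.67). It was Cp, ceruloplasmin, at 3235, 3132 and 2681 against 1763, 1902 and 1787 (log2 change 0.73, 95% confidence interval 0.57 to 0.88, adjusted p = 1.91e-04), and it kept its call whichever library was left out. 

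Antigen presentation showed little that passed the threshold. Of 10 MHC class II genes 0 rose and 0 fell, with an unadjusted p under 0.05 upward in 7 and downward in 1, and a median of 0.68. Cd74, the invariant chain, was at 16757, 11265 and 14703 against 7999.6, 9258 and 9258 (log2 change 0.67, adjusted p = 0.224), and H2-Aa at 3411, 2388 and 3223 against 1883, 2186 and 1842 (log2 change 0.60, adjusted p = 0.275). Of 11 genes of MHC class I and the immunoproteasome 1 rose and 0 fell (median 0.59). This was Nlrc5, the transactivator of MHC class I, at 1324, 853 and 954 against 366, 361 and 355 (log2 change 1.5, adjusted p = 0.0445), and it was called in none of the fits without one of the 6 libraries.

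In bulk tissue a change in the number of cells of a type and a change in the RNA per cell cannot be told apart, which holds for all cell lists here. Among 7 eosinophil genes 2 rose and 0 fell (median 0.26), 1 without library 8 or 9 and 0 without library 7, 10, 11 or 12. Prg2, the major basic protein of eosinophil granules, was at 25.5, 8.33 and 9.33 against 2.08, 1.00 and 1.00 (log2 change 2.56, adjusted p = 0.0295), and the other gene was Ccr3. Epx and Prg3, granule genes of the same cell, were at or near 0 in all 6 libraries, between 0 and 1. Among 14 T cell genes 3 rose and 0 fell (median 0.26), and 0 rose without library 7, 8, 10 or 11. Foxp3, the transcription factor of regulatory T cells, was at 17.6, 17.2 and 19.9 against 6.58, 4.33 and 3.42 (log2 change 1.77, adjusted p = 0.0231). Il2ra, a chain of the receptor for IL-2, was at 77.2, 56.0 and 50.6 against 27.0, 21.3 and 35.9 (log2 change 1.11, adjusted p = 0.0232). Cd28, a costimulatory receptor, was at 69.2, 58.2 and 59.8 against 44.6, 28.2 and 36.5 (log2 change 0.78, adjusted p = 0.0484). In all 3 genes the groups did not overlap, but Cd28 was called in none of the fits without one of the 6 Has2+/- libraries.

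Among 10 genes of interstitial macrophages 3 rose and 0 fell (median 0.20), and 2 or 3 rose whichever library was left out. Ms4a7 was at 78.1, 56.2 and 57.4 against 21.1, 17.4 and 30.2 (log2 change 1.46, adjusted p = 0.00665). Adgre1, which encodes the macrophage marker F4/80, was at 261, 231 and 222 against 161, 147 and 156 (log2 change 0.62, adjusted p = 0.00665), and Cd68, a lysosomal protein of macrophages, rose by 0.65. Among 10 genes of alveolar macrophages 0 rose and 0 fell (median -0.05; 1 at an unadjusted p under 0.05 upward and 1 downward). Abcg1, a cholesterol exporter, was at 993, 999.8 and 1059.8 against 1104, 1019 and 1123 and Lpl, lipoprotein lipase, at 1413, 1141 and 1505 against 1327, 1365 and 1427. Among 13 genes of dendritic cells and monocytes none passed, with 7 at an unadjusted p under 0.05 upward and a median of 0.70. Itgax was at 1355, 776 and 871 against 499, 576 and 603 (log2 change 0.80, adjusted p = 0.151) and Ccr2, the receptor of Ccl2 and Ccl7, at 695, 531 and 454 against 275, 420.2 and 334 (log2 change 0.70, adjusted p = 0.136).

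Neutrophil, cytotoxic and mast cell genes gave a single call. Among 13 neutrophil genes none rose or fell (median -0.48; 0 and 0 at an unadjusted p under 0.05 upward and downward). Csf3r, a growth factor receptor of neutrophils, was at 459, 399.8 and 277 against 358, 855 and 478 and Ltf, lactoferrin, at 875, 396 and 452 against 525, 309 and 838, with overlap in both. Among 9 genes of NK and cytotoxic cells none rose or fell (median 0.36; 0 at an unadjusted p under 0.05 upward). The granzyme gene Gzma was at 117, 113 and 97.2 against 74.0, 76.1 and 109 and the perforin gene Prf1 at 66.9, 56.3 and 81.6 against 71.2, 57.2 and 97.2. Among 8 genes of mast cells and basophils 1 fell and 0 rose (median -0.09). This was the mast cell protease gene Mcpt4, at 1.00, 0 and 1.00 against 5.75, 4.67 and 4.67 (log2 change -1.92, adjusted p = 0.0447). Mcpt4 was not called without library 7, 8, 10, 11 or 12, and its values are low.

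Among 11 immunoglobulin constant and transport genes 1 rose and 0 fell (median 1.56). It was Pigr, the receptor that carries IgA across the epithelium, at 2466, 2367 and 2002 against 578, 751 and 1045 (log2 change 1.56, 95% confidence interval 1.06 to 2.06, adjusted p = 0.0129), and it was not called without library 7 or 11. Ighg1, the constant gene of IgG1, was at 405, 20.4 and 415 with ovalbumin and at 3.00, 4.67 and 4.67 with saline (log2 change 4.93, 95% confidence interval 1.2 to 8.66, adjusted p = 0.153); it was not called, and library 8 stood far below libraries 7 and 9. Of 165 tested variable segments 3 rose and 0 fell, a share near the 1.85% of all genes that rose, and their median change was 0.88. Ighv1-11 was listed at 0 in all saline libraries and at 17.8, 8.0 and 13 with ovalbumin (adjusted p = 0.00440). Ighv6-3 was at 12.2, 11.2 and 28.6 against 1.00, 1.00 and 1.92 (log2 change 2.90, adjusted p = 0.00694), and both stayed called whichever library was left out. Igkv8-16 was at 14.2, 6.92 and 16.2 against 0, 0 and 1.92 (adjusted p = 0.0441). Among 11 genes of B and plasma cells 1 rose and 0 fell (median -0.07). This was Derl3, a protein of the secretory apparatus, at 43.4, 18.3 and 26.4 against 11.2, 10.8 and 5.25 (log2 change 1.57, adjusted p = 0.0479), called only without library 8 among the fits that leave out 1 of the 6 libraries.

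Of 13 protein folding genes of the endoplasmic reticulum 5 rose and 0 fell (median 0.69). The count was 8 without library 9, 1 without library 7, 3 without library 8 and 0 without library 10 or 11. Hspa5, the chaperone BiP, was at 5983, 4073 and 4037 against 2093, 2300.4 and 2669 (log2 change 0.98, 95% confidence interval 0.59 to 1.37, adjusted p = 0.0243). Pdia6, a disulfide isomerase, was at 2274, 1668 and 1566 against 958, 968 and 1225 (log2 change 0.79, adjusted p = 0.0295). Calr, the chaperone calreticulin, rose by 0.76, Edem1, which marks misfolded glycoproteins for removal, by 0.58, and Xbp1, the transcription factor of this response, by 0.35. Cell cycle and replication genes gave 3 rises and 0 falls among 18 (median 0.60), 8 without library 9 and 0 without library 7, 8, 10 or 11. Rrm2, a subunit of ribonucleotide reductase, was at 156, 104 and 71.3 against 41.2, 45.7 and 62.1 (log2 change 1.09, adjusted p = 0.0295). Mcm3, of the replicative helicase, rose by 0.66 and Pcna, the sliding clamp, by 0.60.

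Of 20 matrix genes 5 rose and 0 fell (median 0.33), with 1 rise without library 7, 10 or 11, 2 without library 8 and 7 without library 9. Col1a1 (chr11:94936224-94953042, plus strand), a chain of collagen I, was at 11964, 10042 and 9894 against 6636, 7196 and 6976 (log2 change 0.61, 95% confidence interval 0.42 to 0.80, adjusted p = 0.00505), and was called whichever library was left out. Col3a1, of collagen III, was at 14703, 13904 and 11964 against 7312, 8407 and 9003 (log2 change 0.71, adjusted p = 0.0305). Col5a2 of collagen V rose by 0.51, Col1a2 by 0.37 and the fibrillin gene Fbn1 by 0.33. 

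Among the 23 tested genes of hyaluronan synthesis, breakdown and binding 1 rose and 1 fell (median 0.13). Vcan, versican, a proteoglycan that binds hyaluronan, was at 516, 440.4 and 319.6 against 213, 249 and 237 (log2 change 0.84, 95% confidence interval 0.52 to 1.16, adjusted p = 0.0136), and lost its call only without library 10. Itih5, of the family whose heavy chains are joined to hyaluronan, was at 72.8, 104 and 108 against 251, 209 and 178 (log2 change -1.16, 95% confidence interval -1.66 to -0.66, adjusted p = 0.0245), and was not called without library 7, 8, 10 or 11. The synthase genes showed no call. The change of Has2 was -0.03 (95% confidence interval -0.88 to 0.83). Has1 was at 21.1, 30 and 26.7 against 32.2, 22.3 and 37.7 (log2 change -0.22, 95% confidence interval -0.86 to 0.42, adjusted p = 0.738) and Has3 at 100.1, 116 and 99.5 against 134, 123 and 98.7 (log2 change -0.16, 95% confidence interval -0.51 to 0.18, adjusted p = 0.632). Cd44, the main hyaluronan receptor, was at 2169.5, 1677 and 1662 against 1433, 1443 and 1615 (log2 change 0.29, 95% confidence interval 0.07 to 0.50, adjusted p = 0.133).

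Signalling and regulatory lists each gave 1 or 2 calls. Of 17 genes of TGF-β signalling 1 fell (median -0.06): the coreceptor gene Tgfbr3, at 926, 1218 and 1237 against 1572, 1522 and 1408 (log2 change -0.42, adjusted p = 0.0496). Tgfb1 was at 1071, 929 and 884 against 848, 968 and 868 (log2 change 0.10, 95% confidence interval -0.10 to 0.31, adjusted p = 0.611). Of 13 genes of sphingosine 1-phosphate 1 fell (median -0.02): the receptor gene S1pr4, at 157, 178 and 168 against 233, 208 and 236 (log2 change -0.42, adjusted p = 0.0295). Of 15 genes of leukotriene and prostaglandin synthesis 1 rose and 1 fell (median 0.12). Pla2g4c, a cytosolic phospholipase A2, was at 28.2, 58.6 and 24.8 against 3.08, 2.00 and 9.33 (log2 change 2.82, adjusted p = 0.00784), and Alox12, a lipoxygenase, at 37.1, 47.8 and 36.5 against 83.9, 60.5 and 78.7 (log2 change -0.86, adjusted p = 0.0377). Of 12 immediate early genes 2 fell (median -0.03), and neither was called in any fit without one of the 6 libraries. Egr1 was at 538, 502 and 429.8 against 1007, 736 and 775 (log2 change -0.77, adjusted p = 0.0446). In WT lungs Egr1 was at 437.5, 398 and 475 with ovalbumin and at 517, 395 and 321 with saline (log2 change 0.11). The difference between the genotypes did not pass (limma adjusted p = 0.428). Nr4a1 was at 303, 359 and 325 against 677, 491 and 489 (log2 change -0.73, adjusted p = 0.0400), and library 10 was the highest in both. Of 11 glucocorticoid targets 1 rose (median -0.18): Fkbp5, a cochaperone of the receptor, which rose by 0.77. Of 17 clock genes 1 fell (median -0.07): Npas2, a partner of Bmal1, which fell by 0.61. Every call in this group of lists was lost without library 10, and all but that of Pla2g4c without library 7.

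Besides Gbp10 and Oas1g, described above, another of the largest rises lay outside the lists. Scin, scinderin, which severs actin filaments, was at 46.9, 72.8 and 127 against 16.5, 7.67 and 16.2 (log2 change 2.48, 95% confidence interval 1.73 to 3.23, adjusted p = 0.00336), highest in library 9 and called whichever library was left out. Rgs1, a regulator of chemokine receptor signalling in lymphocytes, was chosen after its values were seen because it too kept its call whichever library was left out. It was at 59.7, 39.4 and 51.0 against 13.4, 10.2 and 14.2 (log2 change 1.90, adjusted p = 8.80e-04).

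Among 11 alveolar type 2 genes 3 rose and 0 fell (median -0.01), 1 without library 7, 8, 10 or 11. Sftpa1 and Sftpd encode the collectins of surfactant; Sftpa1 was at 21053, 23018 and 17649 against 14230, 13416 and 16372 (log2 change 0.48, adjusted p = 0.0200) and Sftpd rose by 0.43. Lamp3, a protein of lamellar bodies, was at 3445, 3200.5 and 3411 against 2563, 2411 and 2691 (log2 change 0.39, adjusted p = 0.00505), and kept its call whichever library was left out. Among 10 genes of ciliated cells 1 rose (median 0.21): Dnah5, a dynein of motile cilia, at 1160.3, 1383 and 1433 against 1006, 995 and 1112 (log2 change 0.35, adjusted p = 0.0385), not called without library 8, 9, 10 or 11. Among 9 smooth muscle genes 2 rose (median 0.10), Acta2 by 0.55 and Tagln by 0.35. Neither was called without library 7, 8, 11 or 12.

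No member rose or fell among 8 club cell genes (median -0.31), 10 alveolar type 1 genes (-0.14), 13 endothelial genes (-0.19), 11 fibroblast genes (-0.25) and 5 mesothelial genes (-0.19). At an unadjusted limma p under 0.05, in the same order, 1, 0, 5, 6 and 0 of them were lower and 1, 2, 0, 0 and 0 higher, against 8.88% and 10.5% of all genes. Scgb1a1, the club cell secretory protein, was at 65205, 79206 and 65205 against 79206, 79206 and 65205; equal values arise from the shared scale. Cbr2, a carbonyl reductase of club cells, was at 8819, 11080 and 13416 against 12920, 13669 and 14703. Clic5 of alveolar type 1 cells was at 5856, 6766 and 6357 against 6694, 5983 and 6919.8. Cdh5, the cadherin of endothelial junctions, was at 6836, 7834 and 7368 against 8819, 8082 and 8747 (log2 change -0.22, adjusted p = 0.0762), and Vwf at 8522, 8168 and 10326 against 9361, 10713 and 9217. Inmt, an abundant methyltransferase of lung fibroblasts, was at 3506, 5067 and 4799 against 6303, 6836 and 6426 (log2 change -0.57, adjusted p = 0.177), and Npnt at 3368, 4850.4 and 4294 against 4912, 4729 and 5144. The mesothelial genes Msln and Upk3b were at 340.5, 384 and 328 and 291, 413 and 335 with ovalbumin and at 324, 354 and 415 and 406, 427 and 454 with saline. 

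Transport and detoxification genes did not pass either. Of 9 genes of ion and water transport and 14 genes of xenobiotic metabolism none rose or fell; their medians were -0.18 and -0.44, and 2 and 4 were lower at an unadjusted p under 0.05. Scnn1a, a subunit of the epithelial sodium channel, was at 2310.2, 2602 and 2589 against 2910.4, 3092 and 2861 (log2 change -0.24, adjusted p = 0.0835), and the water channel gene Aqp1 at 3150.2, 3819 and 3989 against 4309.7, 4373 and 4462. Cyp2f2, a cytochrome P450 of club cells, was at 7108, 8522 and 10713 against 11964, 14230 and 12550 (log2 change -0.57, adjusted p = 0.176), and Fmo2, a flavin monooxygenase, at 2804, 4083 and 3946 against 4799, 4977 and 4627.

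**Figure D3:**
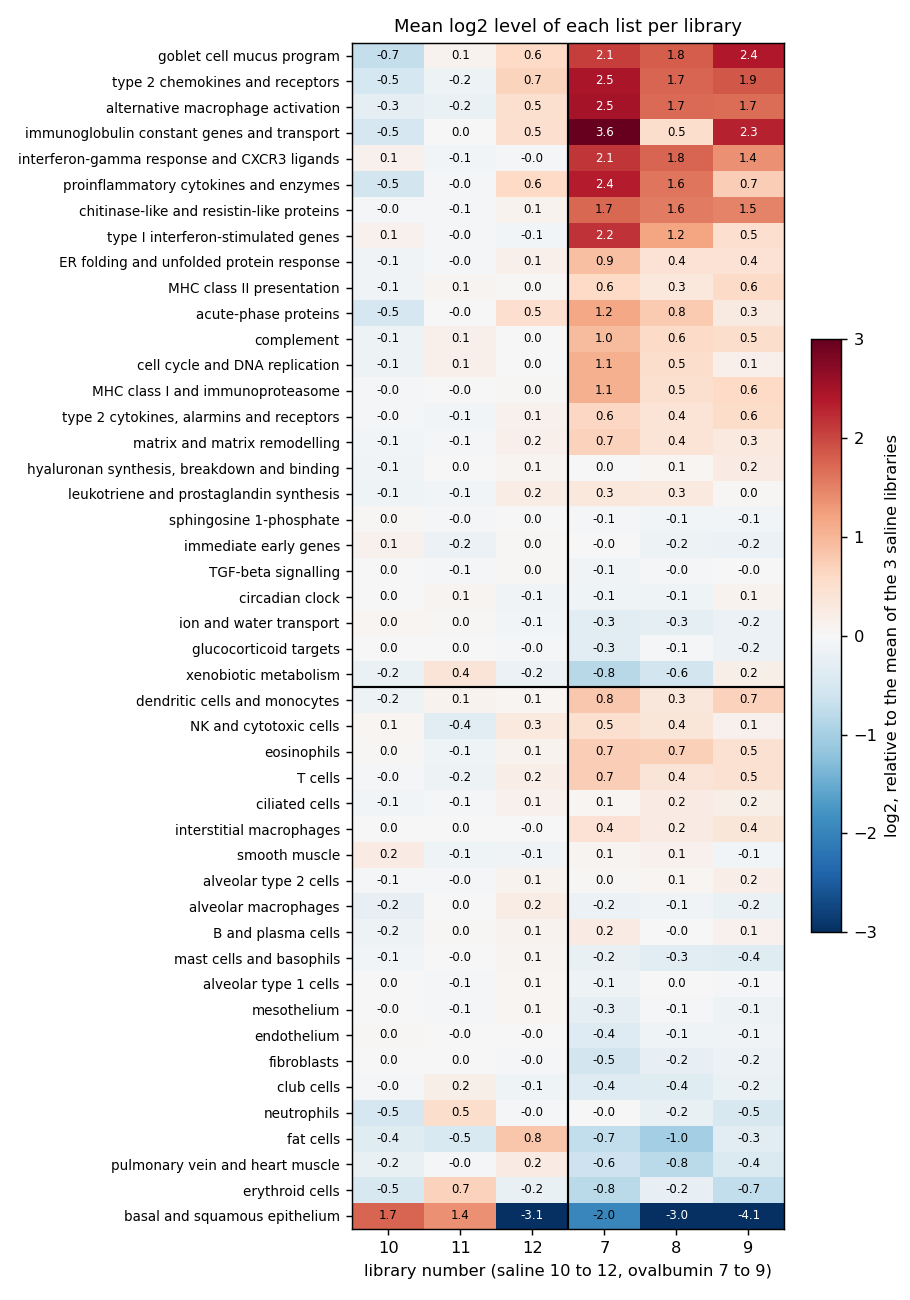
Mean log2(normalized value + 1) of each gene list in each of the 6 Has2+/- libraries, relative to the mean of the 3 saline libraries (columns, saline 10 to 12 and ovalbumin 7 to 9; rows, function lists above and cell lists below the line, ordered by median change). Library 7 is the highest ovalbumin library in most of the upper rows, and libraries 10 and 11 stand apart from the other 4 in the row of basal and squamous epithelium.

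The genes that fell included several of striated muscle. Heart muscle cells extend into the walls of the large pulmonary veins in mice. Smyd1, a methyltransferase of muscle, was at 23, 17.8 and 27.7 with ovalbumin and at 88.8, 89.6 and 61.2 with saline (log2 change -1.76, 95% confidence interval -2.52 to -1.01, adjusted p = 0.0229). Mylk3, the myosin light chain kinase of heart muscle, was at 43.5, 40.5 and 61.0 against 117, 119 and 98.7 (log2 change -1.21, 95% confidence interval -1.64 to -0.77, adjusted p = 0.00734). Myoz2, a Z-disc protein of heart and slow muscle, was at 27.4, 40.6 and 48.7 against 81.2, 82.6 and 94.3 (log2 change -1.16, 95% confidence interval -1.61 to -0.71, adjusted p = 0.0124). In these genes every ovalbumin library lay below every saline library, as the rule that named them required. Smyd1 was not called without library 7, 8, 10 or 11, and Myoz2 was not called without library 7 or 10. Of 10 genes in the list of pulmonary vein and heart muscle 1 fell, Tnnt2, cardiac troponin T, at 492, 466 and 559 against 645, 722 and 897 (log2 change -0.57, adjusted p = 0.0496), and the list's median was -0.59. The count of falls was 0 without library 7, 8, 10, 11 or 12 and 5 without library 9. The summed level of that list was 5109 to 6449.9 with ovalbumin and 7428 to 10658 with saline, with no overlap.

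The summed levels of fat cell and erythroid genes also lay lower with ovalbumin, with no overlap. The sum of 8 fat cell genes was 872 to 1122 against 1382 to 2583, and that of 7 erythroid genes was 17299 to 22715 against 25029 to 44651. None of these genes rose or fell, with medians of -0.59 and -0.68, and 3 and 0 were lower at an unadjusted limma p under 0.05. Car3, a carbonic anhydrase of fat, was at 299, 217 and 369 against 682, 685 and 1016 (log2 change -1.43, adjusted p = 0.105) and Cfd, adipsin, at 301, 280.1 and 351 against 372, 281 and 833. The globin genes Hba-a2 and Hbb-bs were at 6303, 8329 and 6303 and 7046, 9112 and 6976 with ovalbumin and at 9003, 16372 and 9361 and 10326, 17649 and 10042 with saline. The only tested thymocyte gene, Dntt, lay between 0 and 5.25 in all 6 libraries, with a change of -0.05. The part of tissue makeup in the falls was not tested.

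The remaining falls named by size had various roles. Kcna1, a voltage-gated potassium channel, was at 3.08, 5.92 and 6.08 with ovalbumin and at 41.1, 36.0 and 21.8 with saline (log2 change -2.49, 95% confidence interval -3.64 to -1.35, adjusted p = 0.0295). Arhgef37, a guanine nucleotide exchange factor, was at 28.8, 15.2 and 12.8 against 51.5, 48.1 and 34.4 (log2 change -1.26, adjusted p = 0.0377). Coro6, a coronin that binds actin, was at 33.2, 53.1 and 45.8 against 117, 101 and 84.3 (log2 change -1.19, adjusted p = 0.00734). Wnt10b, a Wnt ligand, was at 32.9, 66.9 and 60.5 against 109.7, 108 and 128 (log2 change -1.15, adjusted p = 0.0486). Coq8a, which takes part in the making of coenzyme Q, was at 111, 109 and 138 against 282, 299.5 and 207 (log2 change -1.13, adjusted p = 0.0441). Kcna1 and Coq8a were not called without library 7, 8, 10 or 11, Wnt10b was not called without library 7, 9, 10, 11 or 12, Arhgef37 was not called without library 8, 9, 10 or 11, and Coro6 and Mylk3 lost their calls only without library 10.

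Hamp2 (chr7:30922389-30924681, minus strand), the second hepcidin gene of mice, gave the smallest adjusted p of all genes. It was listed at 0 in libraries 7, 8 and 9 and at 62.1, 59.2 and 63.9 in libraries 10, 11 and 12 (adjusted p = 1.29e-05). In the WT ovalbumin libraries it was at 0, 0 and 0 and in the WT saline libraries at 1.83, 0 and 0. It was the only gene at 10 or more in all Has2+/- saline libraries and at 2 or less in the other 9 libraries, and 0 genes had that pattern in any of the other groups. Hamp2 shares 15.5% of its 50-base stretches with Hamp.

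The same treatment in WT lungs changed more genes, 1645 upward (8.65%) and 1530 downward (8.05%). The libraries of that comparison are all different ones. Both comparisons share each gene's estimate of spread, however, so that their calls are not independent. Of the 351 rises in Has2+/-, 272 were also called in WT, which is 77.5% of the Has2+/- rises and 16.5% of the WT rises. Of the 181 falls 121 were called in WT, 66.9% of the Has2+/- and 7.91% of the WT falls. The direction was the same in WT for 334 of the 351 rises and 175 of the 181 falls, whether or not called. Over all tested genes the Has2+/- and WT changes had a Spearman correlation of 0.494. Only Dnah5 was called in opposite directions, at 0.35 in Has2+/- and -0.27 in WT. The median change of the Has2+/- rises was 0.62 in Has2+/- and 0.68 in WT. For the WT rises the medians were 0.33 in Has2+/- and 0.63 in WT, where the genes had been chosen.

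Whether the response itself differed between genotypes was tested as an interaction (the change in Has2+/- less that in WT), and 3 of the 19017 genes passed (0.0158%), 1 above 0 (0.00526%) and 2 below (0.0105%). At an unadjusted p under 0.05 it was 8.54% of all genes, 5.1% above 0 and 3.45% below. No gene of the mucus, chitinase-like, chemokine or interferon lists was among the 3 that passed after adjustment. Retnla changed by 4.02 in Has2+/- and 4.51 in WT, a difference of -0.49 (95% confidence interval -2.19 to 1.2). For Muc5ac the changes were 3.39 and 3.27 (difference 0.13, interval -1.42 to 1.67). For Ccl11 they were 2.11 and 2.28 (difference -0.17, interval -0.96 to 0.62). Cxcl10 changed by 3.56 and 5.77 (difference -2.22, interval -3.89 to -0.54, adjusted p = 0.514). The intervals of Retnla and Muc5ac reach beyond 1 on the log2 scale in both directions.

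**Figure D4:**
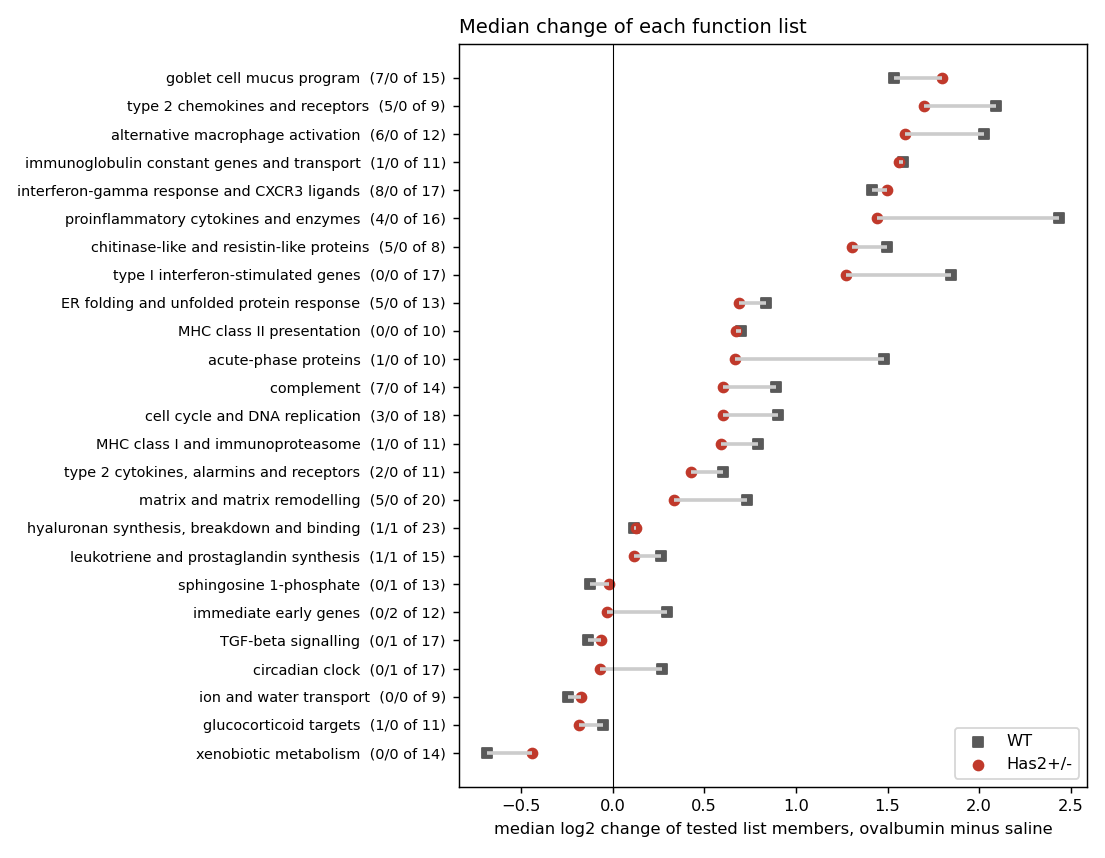
Median log2 change after ovalbumin of the tested members of each of the 25 function lists in Has2+/- (red circles) and WT lungs (grey squares), with the Has2+/- counts of rises, falls and tested genes in each label. Goblet cell mucus has the highest median in Has2+/- (1.80, against 1.53 in WT). Proinflammatory cytokines and enzymes have the highest in WT (2.44, against 1.44 in Has2+/-). The list medians were not tested against each other.

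The 3 genes that passed were Hamp2, Junb and Muc16. Junb (chr8:84974484-84978718, minus strand), a subunit of the transcription factor AP-1, was at 1006, 854 and 786 against 843, 997 and 812 in Has2+/- lungs, and at 1758, 1342 and 1630.2 with ovalbumin against 709.8, 743 and 683 with saline in WT. Its change was -0.01 in Has2+/- and 1.14 in WT, a difference of -1.14 (95% confidence interval -1.48 to -0.81, adjusted p = 0.0331). Muc16 (chr9:18495455-18674530, minus strand), a membrane mucin, was at 405, 517 and 448 against 478, 447 and 448 in Has2+/-, and at 279, 321 and 333 against 628, 526 and 576 in WT. Its difference was 0.88 (interval 0.59 to 1.17, adjusted p = 0.0481). In Has2+/- the groups overlapped for both genes, and in WT they did not. For Hamp2 the adjusted p of the difference was 0.00627. Without library 10 or 11 0 genes passed, and without library 7 10 passed above 0 and 15 below.

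**Figure D5:**
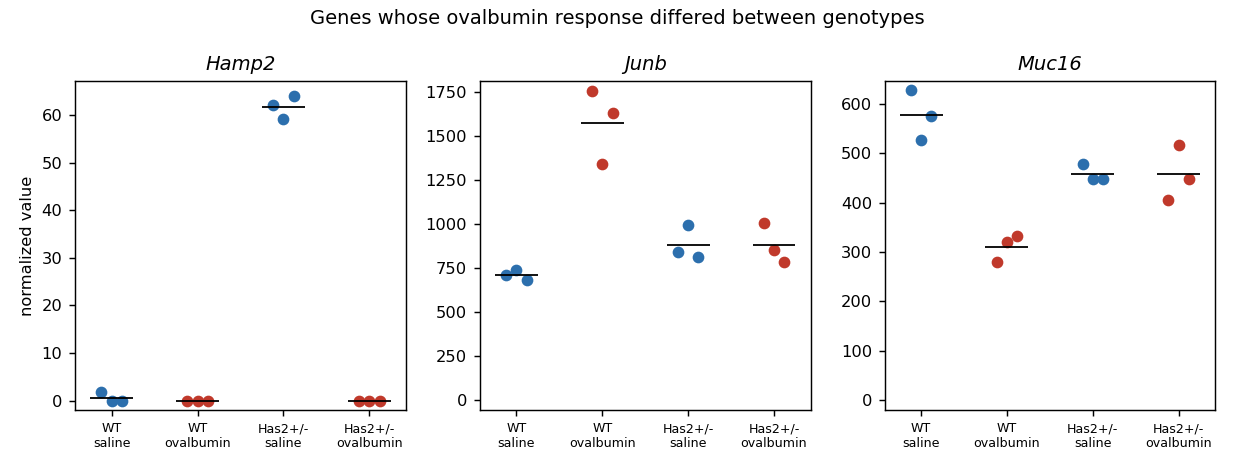
Normalized value of Hamp2, Junb and Muc16 in each of the 12 libraries by group, with the group mean as a line. Hamp2 stands at 59.2 to 63.9 in the Has2+/- saline libraries and at 1.83 or less in all others, and the Junb and Muc16 values of the treatments overlap in Has2+/- and are apart in WT.

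The next 7 genes in order of that test, among those that the naming rule admits, did not pass. Of these, 4 encode proteins of motile cilia. Hydin, of the central pair of motile cilia, changed by 0.23 in Has2+/- and -0.29 in WT (adjusted p of the difference 0.255). For Dnah5, the dynein described above, the adjusted p of the difference was 0.281. Spef2, of the cilium and sperm tail, was at 190.2, 227 and 213 against 152, 148 and 164 in Has2+/- (log2 change 0.43, adjusted p = 0.0370), changed by -0.26 in WT, and was called in none of the fits without one of the 6 Has2+/- libraries. Dnah6, another dynein of cilia, changed by 0.31 and -0.27. The other 3 were Cebpb, a transcription factor of acute-phase genes (0.00 in Has2+/- and 0.63 in WT), Mut, the mitochondrial methylmalonyl-CoA mutase (0.17 and -0.45), and Rasef, a small GTPase (0.12 and -0.62).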

How the data were processed

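Per the labels' protocols, RNA came from frozen lungs by Trizol, 500 ng of it entered stranded libraries after rRNA depletion or poly-A purification (both are named), and a NextSeq500 read them. The submitters' processing notes name the mm10 build; of the aligner and the counter nothing is said. The signal values are the authors' deposited normalized counts. By the values, these were quantile-normalized: the sorted columns are identical and each sums to 6852201. The table holds 49585 genes. Each library has 30723 of them at 0, and 26190 are at 0 in every library. The normalization hides the depth, so no counting intervals are given. Low values are the least precise. A set of 12 further columns, a transformed copy of the same values, was not used. The score columns are signed fold changes and the p-value columns FDR-corrected p-values of the authors' EDGE test, per the file headers. Their sign was read as the second group named against the first, and that reading matched the direction of all 1310 genes with a change over 1 in the fit described here.

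Columns were assigned to groups by their genotype and treatment codes; their library numbers match no title, so libraries stand for no individual sample. Replicates had Spearman correlations of 0.971 to 0.990, and libraries of different groups of 0.954 to 0.990. At most 4.46% of tested genes had identical values in 2 libraries of a group, so that none is a copy of another. limma 3.58.1 in R 4.3.3, with trend and robust options, was fitted to log2(value + 1) of the 19017 genes whose highest group mean was 1 or more, with 1 mean for each of the 4 groups (8 residual degrees of freedom, median prior 8.4). Tests were two-sided, with Benjamini-Hochberg adjustment for each comparison and a threshold of 0.05. The fit was tested on simulated data. Coordinates are 1-based in mm10; 49326 identifiers were found in GENCODE M21. Paralog values are shares of 50-base stretches of annotated transcripts. Promoter windows are RefSeq's (GRCm38.p6). Some planned results are not reported here.

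The members and the 47 gene lists were chosen with earlier results of these data known. Genes were named by a rule: the 15 largest rises and 10 largest falls without overlap and with a group mean of at least 20, up to 4 called genes per list and direction, 19 key genes, the 10 genes with the smallest adjusted interaction p (equal values ordered by the unadjusted p), and 2 genes of each list without a call. The rankings by size and by interaction p left out predicted genes, pseudogenes and immunoglobulin or T cell receptor segments. For the interaction, a mean of at least 20 in any group was required. Alternatives were other pseudocounts, filters, centring, limma options, library weights, the 6 libraries alone and each library left out.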

Additional observations from a re-analysis of the deposited data

Results flagged for a closer look

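In 3 genes the response to ovalbumin differed between Has2+/- and WT lungs by the limma test of the interaction, the Has2+/- change minus the WT change. For Hamp2 the difference was -5.47 on the log2 scale, and the gene was above 2 in the Has2+/- saline libraries alone. For Junb the difference was -1.14: the change was -0.01 in Has2+/- and 1.14 in WT. For Muc16 it was 0.88, from changes of -0.01 and -0.89. In the fits without library 10 or without library 11 none of the 3 passed.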

How the results depend on the processing

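All 532 called genes kept their direction under the 22 alternatives (520 had a value where a group mean of 10 was required), while the counts moved. No paired analysis was possible because the columns carry a running library number and not the replicate numbers of the titles. Without limma's trend and robust options 44 genes rose and 7 fell. Without a filter on low values 97 fell, and with library weights 286 fell. With pseudocounts of 0.1 and 10 the rises were 315 and 311, and with each library centred on its trimmed mean 332 rose and 225 fell. In the fit of the 6 Has2+/- libraries alone 284 rose and 188 fell. Leaving out 1 library, WT libraries included, gave 42 to 540 rises and 9 to 356 falls, and 34 rises and 7 falls were called whichever Has2+/- library was left out. The squamous level as a covariate (64 rises, 29 falls) and the fit without libraries 10 and 11 (0 rises, 1 fall) were chosen after seeing the data, as were the fits without 1 WT library. The cause of these shifts was not tested. For the interaction, the genes above and below 0 numbered 0 and 0 with a pseudocount of 0.1, with a group mean of 10 and without libraries 10 and 11. They numbered 0 and 2 with a pseudocount of 10, 0 and 1 after centring, and 2 and 3 without trend and robust. Leaving out 1 library gave 0 to 10 above and 0 to 15 below. Of 80 named calls 78 held after centring, 67 with a pseudocount of 0.1, 15 without trend and robust, and 13 without library 10.

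Among the named genes, changes that turned their sign were all of genes that were not called. With the covariate these were Krt13 (0.21), Has2 (0.24), Junb (0.0727), Muc16 (0.0524), Scgb1a1 (0.0331), Ltf (-0.0754) and Il4 (-0.0902). Without libraries 10 and 11 they were Junb (0.11), Scgb1a1 (0.0935), Has3 (0.0876), Has2 (0.0295), Muc16 (0.0199), Gzma (-0.0023) and Ltf (-0.64). With library weights they were Muc16 (0.0437), Cebpb (-0.0162) and Ltf (-0.0659), and after centring Cebpb (-0.0072). When 1 library was left out, the change ranged from -0.47 to 0.15 for Il5, -0.72 to 0.68 for Dntt, -0.30 to 0.0795 for Prf1, -0.30 to 0.42 for Ltf and -0.0759 to 0.0702 for Cebpb. It ranged from -0.13 to 0.0497 for Msln, -0.11 to 0.0085 for Clic5, -0.11 to 0.0881 for Lpl, -0.10 to 0.0844 for Junb, -0.10 to 0.073 for Muc16 and -0.28 to 0.15 for Has2. The unknown depth of the libraries limits every statement on genes with small values, since no counting error can be given for them.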

Other observations

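A pair of gene groups outside the lists of the report was put together after the values were seen, so their counts are descriptions. Of 19 genes of cholesterol synthesis 4 rose and 0 fell in Has2+/- lungs, 18 had a change above 0, and the median was 0.30. The count of rises was 0 without library 7 or 11, 2 without library 10 and 3 without library 9 or 12, and 6 without library 8. Idi1, an isomerase early in the pathway, was at 264, 209 and 260.4 with ovalbumin and at 181, 125 and 152 with saline (log2 change 0.69, adjusted p = 0.0187). Sqle, squalene epoxidase, was at 441, 380.2 and 458 against 331, 276 and 332 (log2 change 0.45, adjusted p = 0.0219). Cyp51 and Msmo1, which remove methyl groups from lanosterol and its products, rose by 0.53 (adjusted p = 0.0127) and 0.50 (adjusted p = 0.0392). In WT lungs 0 of the 19 rose and 2 fell, with a median of -0.05. The difference between the genotypes had an unadjusted limma p under 0.05 in 11 of them, against 8.54% of all genes, and the smallest adjusted p was 0.281, so that it did not pass for any.

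Of 25 genes that carry new proteins into the endoplasmic reticulum 14 rose and 0 fell in Has2+/- lungs, 23 had a change above 0, and the median was 0.34. The count of rises was 0 without library 10, 4 without library 7 or 11, 9 without library 12, 11 without library 8 and 14 without library 9. Sec61a1, the channel itself, was at 1421, 1191 and 1124 against 909, 922 and 962 (log2 change 0.41, adjusted p = 0.0189). Ddost, of the enzyme that adds sugar chains, was at 1329, 991 and 958 against 794, 756 and 823 (log2 change 0.45, adjusted p = 0.0245), and Spcs3, of the signal peptidase, at 423, 335 and 368 against 240.2, 279 and 256 (log2 change 0.53, adjusted p = 0.0151). In WT lungs 18 of the 25 rose, with a median of 0.43.

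The authors' deposited table, a comparison of the same groups with the EDGE test, called 471 genes at an FDR-corrected p-value under 0.05, 277 higher and 194 lower with ovalbumin. Of the rises found with limma 194 were among the former (55.3% of the limma rises and 70.0% of those in the authors' deposited table). Of the falls 62 were shared with the authors' deposited table (34.3% and 32.0%), and 0 genes were called in opposite directions.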
